A study of Mus musculus with 4 samples.

Results

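The high-scoring Wapal-binding sites were the regions where biotin-mediated ChIP-seq gave a MACS score of at least 200 in mouse embryonic stem cells (ESCs). The score is the negative log10 of the peak caller's p-value multiplied by 10, so that a region at the usual threshold of 1e-05 scores 50. Of 8323 Wapal-binding sites, 440 (5.29%) were chosen by this score, and all of them shared no base with a region recovered from cells without tagged Wapal. The other 7883 sites scored below 200. The libraries came from 129SvJ-derived ESCs adapted to growth on gelatin. In 2 independently derived clones, a Wapal cDNA with a Flag and biotin-acceptor tag (FB Wapal) was introduced into cells that already expressed the bacterial biotin ligase BirA. The tagged protein was made from a transgene beside the endogenous Wapal, below its level. A line expressing BirA without FB Wapal was the negative control, sheared input DNA was the background, and BirA was thus shared by the clones and the control. No treatment was given and no time points were compared. The authors deposited a single combined list for the 2 clones, so there is no spread between replicates, and the intervals given below cover counting error only. Score and width come from the same peak calling and are given as descriptions with no test.

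Wapal releases cohesin, the ring-shaped complex that holds sister chromatids together and folds interphase chromatin into loops. Cohesin accumulates where the zinc finger protein CTCF is bound, and CTCF recognises a long DNA motif with a core that has a direction. In ESCs, such sites are known for setting the borders of loops and for insulating genes, including genes expressed from only the maternal or only the paternal copy.

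The best CTCF-like match in each of the leading sites is printed here with 15 bases on either side, since the motif was the sequence feature that most sites had in common and its bases differed from those at lower-scoring sites. Sequences are from the mm9 genome, written 5′ to 3′ on the strand of the motif, with the 12 core positions in capitals. The first 10 are the 10 sites of the highest score in order of score, followed by the site at the Pdzd9 promoter and the intronic site in Dner. Each is named by the gene it lies in or by the nearest protein-coding gene.
Ppp6c (chr2:39228822-39228863, minus strand): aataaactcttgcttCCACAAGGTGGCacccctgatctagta
Skap2 (chr6:51808052-51808093, minus strand): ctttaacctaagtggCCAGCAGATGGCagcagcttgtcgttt
Grb10 (chr11:11873595-11873636, minus strand): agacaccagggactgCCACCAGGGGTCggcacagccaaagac
Chrm3 (chr13:9846239-9846280, minus strand): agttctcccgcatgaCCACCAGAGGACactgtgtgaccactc
Pgm1 (chr5:64461424-64461465, plus strand): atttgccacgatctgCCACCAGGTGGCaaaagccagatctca
Stox2 (chr8:48457172-48457213, minus strand): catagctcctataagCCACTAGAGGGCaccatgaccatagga
Tfb1m (chr17:3571050-3571091, plus strand): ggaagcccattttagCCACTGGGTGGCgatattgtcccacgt
Alg14 (chr3:121010670-121010711, plus strand): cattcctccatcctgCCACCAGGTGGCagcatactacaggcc
Eaf2 (chr16:36817640-36817681, minus strand): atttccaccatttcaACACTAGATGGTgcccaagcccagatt
1810063B07Rik (chr14:20886733-20886774, minus strand): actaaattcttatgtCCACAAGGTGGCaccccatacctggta
Pdzd9 (chr7:127813836-127813877, plus strand): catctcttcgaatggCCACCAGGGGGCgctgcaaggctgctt
Dner (chr1:84467103-84467144, minus strand): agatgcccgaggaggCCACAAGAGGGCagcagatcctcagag
The first 10 sites had scores from 443.11 to 684.76. Their cores matched the CTCF core motif exactly at Skap2, Pgm1, Stox2 and Alg14 and with 1 mismatch at Ppp6c, Grb10, Chrm3, Tfb1m and 1810063B07Rik. At Eaf2 the best core had 2 mismatches. The cores of the Ppp6c and 1810063B07Rik sites were the same 12 bases.

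The site of the highest score (684.76, chr2:39228458-39229226) held several cores, and 300 bases of it are printed to show their arrangement, on the plus strand with each core in capitals.
Ppp6c site (chr2:39228593-39228892): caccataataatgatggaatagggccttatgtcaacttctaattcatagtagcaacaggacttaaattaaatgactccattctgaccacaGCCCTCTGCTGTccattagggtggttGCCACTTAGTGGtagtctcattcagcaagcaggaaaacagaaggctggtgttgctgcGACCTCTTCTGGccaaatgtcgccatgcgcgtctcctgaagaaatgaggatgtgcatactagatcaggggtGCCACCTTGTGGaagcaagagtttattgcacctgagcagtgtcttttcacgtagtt
All 4 capitalised cores read on the minus strand. The matches had 1 mismatch at 3 of them (starting at 39228683, 39228709 and 39228837) and 2 mismatches at the fourth (39228766). The site was extragenic, and the closest protein-coding TSS, at 147 kb, was that of Ppp6c, which encodes the catalytic subunit of a protein phosphatase.

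The median score of the high-scoring sites was 241 (quartiles 215 and 290), against 78.9 (61.7 and 109) for the other sites. Of the 440 sites, 191 reached 250, 96 reached 300, 22 reached 400, 5 reached 500 and 2 reached 600. Just above the threshold were an intron of Grb10 (200.44), an intron of Styxl1 (200.52), an extragenic site near Plxnc1 (200.55), another near Gnat3 (200.79) and an intron of Lama4 (201.01). Just below were an extragenic site near Apoo-ps (199.85), an intron of Mmrn2 (199.86), a promoter site near Arid3a (199.9), and an intron of Rgl1 and a promoter site 12.1 kb from Tmco5 (both 199.94). Of 478 regions with a score of at least 200 in the combined list, 38 shared sequence with a BirA region and were removed, and 20 of these 38 (52.6%) lay in promoters. The highest score among the regions removed was 607.87.

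**Figure D1:**
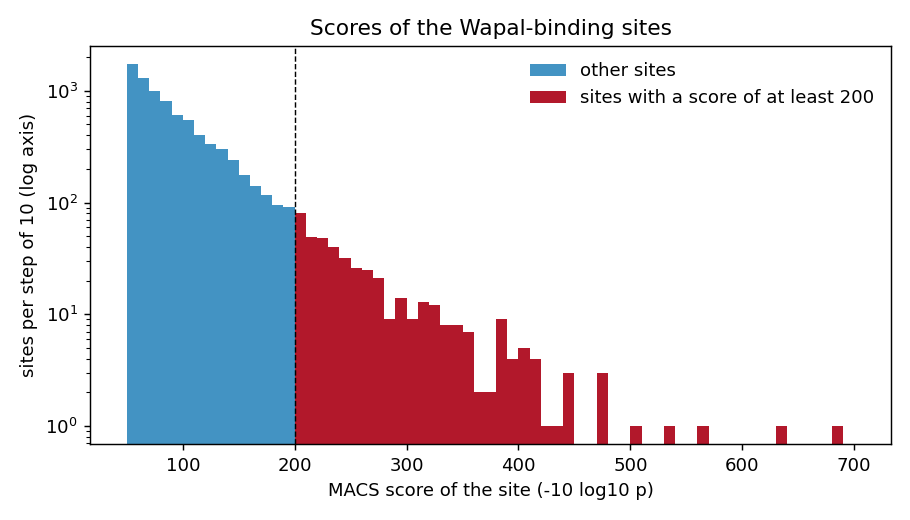
Number of Wapal-binding sites per step of 10 in MACS score (log axis), with sites of at least 200 in red and the other sites in blue. The red sites run from 200.44 to 684.76, and 22 of them lie at 400 or more.

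The high-scoring sites were somewhat wider than the rest. Their median width was 881 bp (quartiles 802 and 983), against 808 bp (710 and 929) for the other sites. The narrowest was 491 bp, in an intron of Lama4, which encodes a laminin chain of basement membranes. The widest was 3099 bp, an extragenic site 65.3 kb from the TSS of Epcam, an epithelial adhesion gene expressed in ESCs. Score and width were only weakly related across all 8323 sites (Spearman's rho of 0.17, a description over sites of the same libraries).

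The CTCF core motif was more frequent in the high-scoring sites than in the others. A core with at most 1 mismatch, searched on both strands of the whole site, was present in 371 of 440 high-scoring sites (84.3%, 95% Wilson interval 80.6 to 87.4). It was present in 5828 of 7883 other sites (73.9%, 73.0 to 74.9). In regions of the same width 5 kb to either side, the shares were 11.8% and 9.91%. An exact core was found in 163 high-scoring sites (37.0%, 32.7 to 41.7) and in 27.8% (26.8 to 28.8) of the others, and in 0.455% and 0.761% of the regions 5 kb away. Wider sites give the search more sequence, and with only the central 500 bp searched the shares at 1 mismatch were 80.2% (76.3 to 83.7) and 69.2% (68.2 to 70.2). The intervals of high-scoring and other sites did not overlap in any of these comparisons at the sites themselves. The 38 regions removed for BirA held the core less often, in 21 (55.3%, 39.7 to 69.9).

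By score class, the share with a core was 70.9% for scores from 50 to 75, and 75.5%, 77.2% and 77.1% in the classes up to 200. It was 84.3% for scores from 200 to 300 and 84.4% for scores of 300 or more. The classes on either side of 300 thus had nearly the same share. The best fit to a position weight matrix of the core and 12 flanking bases on each side, learned from sites below the threshold, had a median of 21.9 bits (quartiles 18.2 and 24.4) against 20.3 (16.6 and 23.7) at the other sites. The ranges overlapped over most of their length, and across the 440 sites score and matrix fit had a Spearman's rho of 0.044. The highest fit of a high-scoring site, 31.3 bits, was at the Dner site printed above, in an intron of a gene for a Notch-binding membrane protein, with a score of 409.25.

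Several cores in a single site were also more frequent. At least 2 separate cores with at most 1 mismatch were present in 73 high-scoring sites (16.6%, 13.4 to 20.4) and in 627 others (7.95%, 7.38 to 8.57). In the central 500 bp alone the shares were 9.32% (6.94 to 12.4) and 4.06% (3.65 to 4.52). By score class the share with at least 2 cores went from 6.25% at 50 to 75 to 14.8% at 200 to 300 and 22.9% at 300 or more. The 5 high-scoring sites with 3 cores lay near Ppp6c, in an intron of Pak7 (385.85), in the promoter of Osbpl5 (318.85), near Fnbp1l (262.54) and near Syce1l (222.17). In the 73 sites with several cores, the closest pair started a median of 128 bp apart, and in 35 sites (47.9%) this was at most 100 bp. The median among the 627 other sites was 226 bp, and 32.2% had a pair within 100 bp. All cores of a site lay on the same strand in 43 of the 73 sites (58.9%, 47.4 to 69.5), against 53.9% (50.0 to 57.8) of the 627, and these intervals overlapped.

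**Figure D2:**
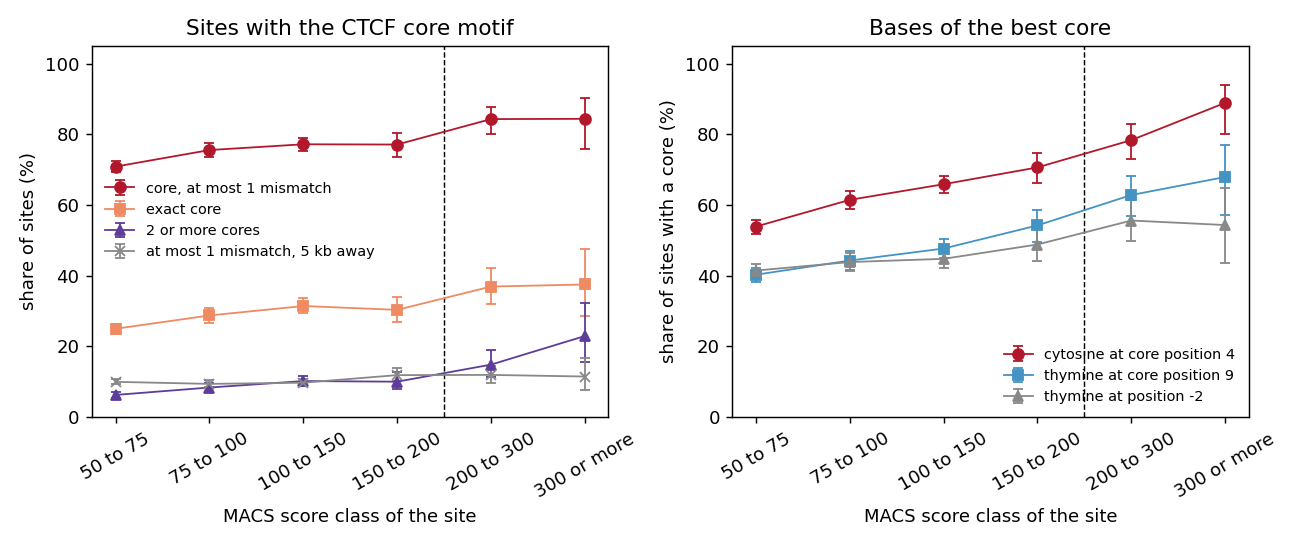
Left, share of sites (%) in each class of MACS score with a CTCF core at most 1 mismatch away, with an exact core, with 2 or more cores, and, as background, with a core in regions of the same width 5 kb away. Right, share of the sites with a core (%) that had cytosine at core position 4, thymine at core position 9 or thymine at position -2. Bars are 95% Wilson intervals and the dashed line marks a score of 200. Cytosine at position 4 goes from 53.9% in the lowest class to 88.9% in the highest.

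The bases inside the core differed between high-scoring and other sites. At the fourth core position, where the motif accepts cytosine or guanine, cytosine was present in 289 of the 358 high-scoring sites whose best match was a core with at most 1 mismatch (80.7%, 76.3 to 84.5). It was present in 60.0% (58.7 to 61.3) of the 5694 other sites of this kind. At the ninth position, where the motif accepts guanine or thymine, thymine made up 64.0% (58.9 to 68.8) against 44.2% (42.9 to 45.5). Both bases together were found in 53.1% (47.9 to 58.2) and 30.6% (29.4 to 31.8). The difference was also seen among exact cores only, where cytosine at position 4 was present in 82.7% (76.0 to 87.8) of 156 high-scoring sites and 64.3% (62.3 to 66.3) of 2135 others. By score class, among cores with at most 1 mismatch, cytosine at position 4 went from 53.9% at 50 to 75 through 61.4%, 65.9%, 70.6% and 78.3% to 88.9% at 300 or more. Thymine at position 9 went from 40.3% through 44.3%, 47.7%, 54.2% and 62.8% to 67.9%. Before the core, at position -2 (counting the first core base as 1 and the base before it as 0), thymine was present in 55.3% (50.1 to 60.4) against 43.4% (42.1 to 44.7). Among exact cores the intervals overlapped at this position (55.8%, 47.9 to 63.3, against 50.1%, 48.0 to 52.2), and the classes on either side of 300 had 55.6% and 54.3%.

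The commonest whole cores are printed because those of the high-scoring and of the other sites were different.
Commonest core of the high-scoring sites: CCACCAGGTGGC
Second commonest: CCACCAGATGGC
Next commonest: CCACTAGATGGC
Commonest core of the other sites: CCAGAAGAGGGC
The first was the best match in 27 high-scoring sites (6.14%, 4.25 to 8.78) and 213 others (2.70%, 2.37 to 3.08). The second was found in 24 (5.45%, 3.69 to 7.99) and 117 (1.48%, 1.24 to 1.78), so that 17.0% of the sites with it were high-scoring, against 5.29% of all sites. The third was found in 21 (4.77%, 3.14 to 7.19) and 232 (2.94%, 2.59 to 3.34), whose intervals overlapped.

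The commonest core of the other sites, CCAGAAGAGGGC, has 1 mismatch to the motif and was rare at high scores. It was the best match in 550 of the 7883 other sites (6.98%, 6.44 to 7.56) but in only 9 high-scoring sites (2.05%, 1.08 to 3.84). Its share was 8.39% at scores of 50 to 75, then 6.08%, 6.22% and 3.87% in the classes up to 200 and 2.62% at 200 to 300, and it was found in 0 of the 96 sites of 300 or more (interval up to 3.85%). Sites with this core also resembled each other outside it. A median of 63.3% of the 30 bases flanking it were the commonest base of that position among its 559 sites, against 36.7% to 41.7% for the other 11 cores examined in the same way. Mouse short interspersed elements of the B2 family are known to carry CTCF motifs, and whether these sites lie in such repeats was not tested here. With all sites of this core left out, cytosine at position 4 was still present in 82.8% (78.5 to 86.4) of the high-scoring and 66.4% (65.1 to 67.7) of the other sites, and thymine at position 9 in 65.6% (60.5 to 70.4) and 48.9% (47.5 to 50.3). Shared flanks were not limited to the core left out. At least 60% of the flanking bases were the commonest of their position in 58.0% of its sites. This share was 25.3% (45 of 178) for the core printed for Dner and 14.0% (37 of 265) for an exact core. For each remaining core examined it was at most 2.84%. Sites of other cores with shared flanks stayed in, so the part of repeats in the base difference was not tested.

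The place of the motif within the site was close to that in the other sites. The best match lay a median of 41.5 bp from the centre of a high-scoring site (quartiles 17 and 85) and 43 bp (18 and 92) from that of the others, and within 100 bp of it in 79.3% (75.3 to 82.8) and 77.8% (76.9 to 78.7). It was on the plus strand in 50.7% (46.0 to 55.3) of the high-scoring sites. A CG dinucleotide, the target of DNA methylation, lay within the 12 core positions of the best match in 8.41% (6.16 to 11.4) and 8.19% (7.61 to 8.82). A CG made by the last core base and the base after it was not counted. Among best matches with at most 1 mismatch, the last core base was cytosine in 89.1% and 89.5%. The base after it was guanine in 43.3% and 39.3%. The central 500 bp had a median GC content of 45.4% (41.8 and 49.2) and 44.8% (41.0 and 48.8).

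**Figure D3:**
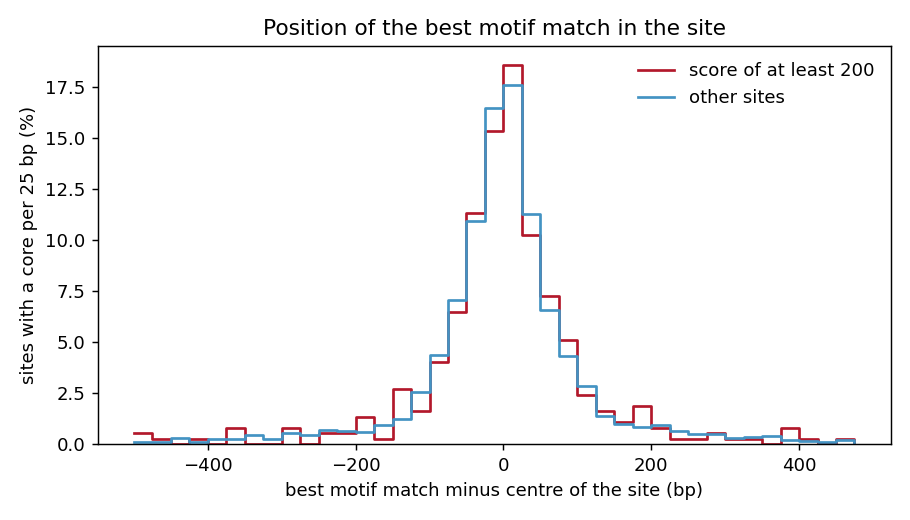
Distance of the best motif match from the centre of the site (bp, negative before the centre) against the share of sites per 25 bp (%), for sites with a score of at least 200 (red) and the other sites (blue). Only sites with a core are drawn, and both curves peak at the centre. Over all sites the median absolute distance was 41.5 bp and 43 bp.

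A minority of the high-scoring sites lacked a close match. No core with at most 1 mismatch was found in 69 of them (15.7%), and their median score of 239.68 was about that of the 371 sites with one (240.64). The highest were the Eaf2 intron printed above (443.4), a site near Rfxap (381.97), an intron of Zfp385b (381.42), a site near Tmem45a (381.12) and a site near Gm6772 (354.42). Rfxap encodes a subunit of the factor that activates MHC class II genes. In 8 sites there was no match even with 2 mismatches. The first of these was the Zfp385b intron, followed by an intron of Ptprh (286.13), a site near Gm17731 (250.31) and the widest site, near Epcam (243.5). The other 4 scored between 202.34 and 211.69. Promoters made up 10 of the 69 sites without a core (14.5%, 8.07 to 24.7) and 27 of the 371 with one (7.28%, 5.05 to 10.4), with overlapping intervals.

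Most high-scoring sites lay between genes. By their centre, 261 (59.3%, 54.7 to 63.8) were extragenic, against 53.8% (52.7 to 54.9) of the other sites. Introns held 128 (29.1%, 25.0 to 33.5) against 33.6% (32.5 to 34.6), promoters (within 2 kb of a TSS) 37 (8.41%, 6.16 to 11.4) against 9.98% (9.34 to 10.7), and exons 14 (3.18%, 1.90 to 5.27) against 2.61% (2.28 to 2.99). The intervals overlapped for each of the 4 places. A centre inside a protein-coding gene was found for 152 sites (34.5%, 30.3 to 39.1) and for 39.8% (38.7 to 40.9) of the others. The median distance to the nearest TSS was 15.6 kb (quartiles 6.91 and 38.3) and 16.3 kb (6.02 and 40.9), and 8.41% and 8.74% lay over 100 kb away. The site farthest from a protein-coding TSS was 563 kb from Tox3.

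The highest promoter site (414.89, chr7:127813414-127814171) was centred 29 bp from the TSS of Pdzd9 and held an exact core. A site at 403.09 lay 1.89 kb from the TSS of Gm12756, with Kctd15 as the nearest protein-coding gene. Next were the promoters of Ccdc110 (380.69), Gtf3c5, a subunit of the RNA polymerase III factor TFIIIC (372.07), Mtus1, a microtubule-associated tumour suppressor (344.94), and Pcdhgc5 (339.89), at a TSS inside an annotated gene model that covers much of the gamma-protocadherin cluster. The remaining 4 of the top 10 lay at Gm11656 inside Apoh (325.95), Gucy1b2 (325.75), Nek10 (324.65) and Osbpl5 (318.85). A core with at most 1 mismatch was present in 27 of the 37 promoter sites (73.0%, 57.0 to 84.6) and in 229 of the 261 extragenic sites (87.7%, 83.2 to 91.2). Among the other sites these shares were 64.8% (61.4 to 68.1) and 74.2% (72.9 to 75.5), so the intervals of high-scoring and other sites were apart for extragenic sites and overlapped for promoters.

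The 14 exonic sites were led by Kif27, a kinesin gene (430.64), where 2 cores lay on opposite strands. They continued with Nt5m (318.35), Rnf150 (291.05), Osbpl3 (278.71), Snx10 (254.29) and Sfpi1, which encodes the blood transcription factor PU.1 (248.04). The next were an exon of a transcript near Erv3 (243.42), BB014433 (229.97), Bmpr1b, a BMP receptor (222.59), and Dcp1b, an mRNA decapping factor (218.62). Other high scores in the first 20 were an extragenic site near Gm9799 (441.92), one near Hepacam2 (428.42), one near Stard6 (419.98), one near Rbm34 (414.39), an intron of the potassium channel gene Kcnt2 (413.09) and a site near Glrx (407.84).

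The nearest other site of any score was a median of 71.0 kb away (quartiles 28.5 and 150) and 74.5 kb (26.6 and 161) for the others, and 11.8% (9.13 to 15.2) and 12.4% (11.7 to 13.1) had a site within 10 kb. Between neighbouring high-scoring sites the median was 2973 kb over 420 pairs, and 1 pair lay within 10 kb. This was the pair in Grb10, at 561.51 and 200.44, whose centres were 1.61 kb apart. The next were a pair between Nos1ap and Olfml2b (301.72 and 263.47, 19.2 kb), a pair at the ribonuclease genes Rnase9 and Rnase12 (36.6 kb), a pair at Serpinb6a and Bphl (51.2 kb) and a pair at Darc and Aim2 (53.8 kb). For core direction, sites whose best match was not a core with at most 1 mismatch were skipped before neighbours were paired. Of the 338 resulting pairs of high-scoring sites, 164 (48.5%, 43.2 to 53.8) pointed the same way. Another 87 (25.7%, 21.4 to 30.7) pointed towards each other and 87 pointed apart. Among pairs of other sites, 46.9% (45.6 to 48.2) pointed the same way and 26.6% (25.4 to 27.7) towards each other. Along a chromosome, pairs pointing towards each other and apart must alternate, so their counts are nearly equal by construction. These shares therefore cannot show a preference for either arrangement.

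The sites were unevenly spread over the chromosomes. Chromosome 8 held 56 of them, 10.4% (8.10 to 13.3) of its 538 sites, or 0.425 per Mb. Over the other chromosomes together the share was 4.93% (4.47 to 5.44). The next highest share was 6.72% (5.11 to 8.80) on chromosome 1, and the lowest was 3.15% (1.89 to 5.22) on chromosome 5. In 20-Mb parts of chromosome 8 the share ranged from 6.25% (5 of 80 sites, 100 to 120 Mb) to 16.7% (17 of 102, 80 to 100 Mb). The median score of all sites on chromosome 8, 88.1, was also the highest of any chromosome, followed by 87.0 on chromosome 1, and the lowest was 71.0 on X. Sites of chromosome 8 had a core in 76.4% and a median matrix fit of 20.8 bits, against 74.3% and 20.4 bits elsewhere. Chromosome X held 6 high-scoring sites, 3.77% (1.74 to 7.99) of its 159 sites. At 0.0360 per Mb this was the lowest density, and its sites of all scores, at 0.954 per Mb, were also fewer than on any other chromosome. Copy number and read depth per chromosome are not in the lists, and their part was not tested.

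**Figure D4:**
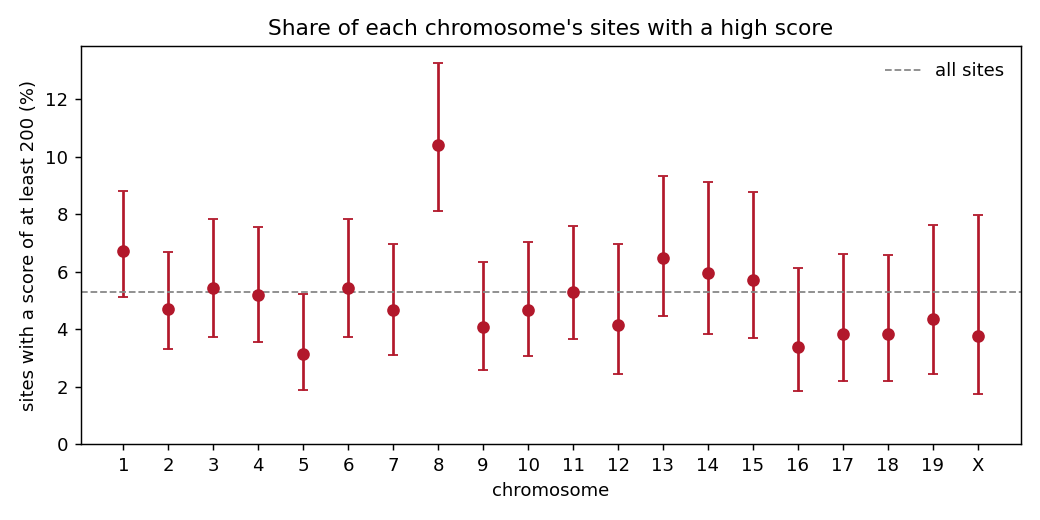
Share of each chromosome's Wapal-binding sites with a score of at least 200 (%), with 95% Wilson intervals, and the share over all sites as a dashed line at 5.29%. Chromosome 8 stands at 10.4%, and its interval starts at 8.10%, above the line.

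Genes near the high-scoring sites were taken from 16 gene lists. Any of the 440 sites lay within 50 kb of a TSS for 635 of 22238 protein-coding genes (2.86%), and any Wapal-binding site for 42.3%. The shares below are descriptions and were not tested. Distances run from the centre of a site to the nearest annotated TSS of the gene, so that a site may lie inside the gene.

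Imprinted genes, which are expressed from one parental copy, stood at 10 of 64 (15.6%) with a high-scoring site and 53.1% with any site. These 10 genes had 7 different sites as their nearest, and Grb10 also held a second one, at 200.44. Grb10, an adaptor that restrains insulin and growth factor signalling, had the third highest score of all 2.84 kb from a TSS (561.51). Osbpl5, a lipid transfer protein gene, held a site of 3 cores 1.79 kb from a TSS (318.85). A site at 310.92 lay in an intron of the annotated gene of Th, the rate-limiting enzyme of catecholamine synthesis, 11.7 kb from a TSS of it and 49.8 kb from that of Ascl2, a transcription factor of the placenta. An intron of Kcnk9, a potassium channel gene, held a site 29.1 kb from its nearest TSS (253.22), and an intron of Trappc9, a trafficking gene, held another 32.8 kb from a TSS (244.01). A site at 243.32 lay 0.222 kb from a TSS of Commd1, which acts in copper balance, and 16.0 kb from Zrsr1, the retrogene inside it. The weakest of the 7 nearest sites, at 205.61, lay between Mkrn3 (19.8 kb) and Magel2 (23.4 kb), paternally expressed genes of the region deleted in Prader-Willi syndrome. Within 10 kb, the count was 3 of 64, and within 100 kb it was 13 of 64, against 0.612% and 5.37% of all protein-coding genes.

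For the other short lists, counts of 0 or 1 gene are near what the 2.86% of all protein-coding genes comes to, and neighbouring genes of a cluster share their sites. Of 39 Hox genes, which pattern the body axis, 36 (92.3%) had a site of some score within 50 kb and all had one within 100 kb, and 0 had a high-scoring site at either distance. Among genes flanking the Hox clusters, 1 of 14 had one, Snx10, in its exon. The second highest site of all (636.9) lay beyond that distance, 155 kb from the TSS of Skap2, an adaptor gene next to the Hoxa cluster. It was just past the 3′ end of Skap2, so the whole gene lay between the site and this TSS. Of 67 replication-dependent histone genes, 58 (86.6%) had a site and 0 a high-scoring one, and 7 of the 38 regions removed for BirA were nearest to a histone gene. The counts were also 0 of 29 pluripotency factors (62.1% with any site), 0 of 32 Polycomb genes (46.9%), 0 of 22 cohesin and CTCF genes (40.9%), 0 of 18 Sox genes (38.9%) and 0 of 79 ribosomal protein genes (48.1%). In the clustered protocadherins, where CTCF and cohesin are known to guide promoter choice, all 24 genes had a site within 50 kb and 1, Pcdhgc5, a high-scoring one.

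Developmental regulators had a few. In the forkhead family the 3 of 42 genes (7.14%) were Foxc2 (270.16, 2.61 kb away), Foxj1, the regulator of motile cilia (250.33, 16.2 kb), and Foxc1 (212.99, 13.9 kb). In the homeobox and paired list the 3 of 68 (4.41%) were Nkx1-1 (329.38, 37.2 kb), Nkx2-3 (238.66, 11.7 kb) and Nkx2-2, a regulator of ventral neural and pancreatic cells (211.88, 7.89 kb). Of 52 Wnt, Fgf and Bmp ligands, Fgf1 alone had one within 50 kb (310.32, 11.2 kb). Of 32 receptors for acetylcholine and amines, Chrm3 alone had one (537.87, 32.0 kb), the fourth highest score. Olfactory receptor genes stood at 19 of 1087 (1.75%), with 7 different sites nearest to them. Zinc finger genes named Zfp stood at 3 of 340 (0.882%), these being Zfp169 (239.2), Zfp236 (230.06) and Zfp654 (214.63).

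**Figure D5:**
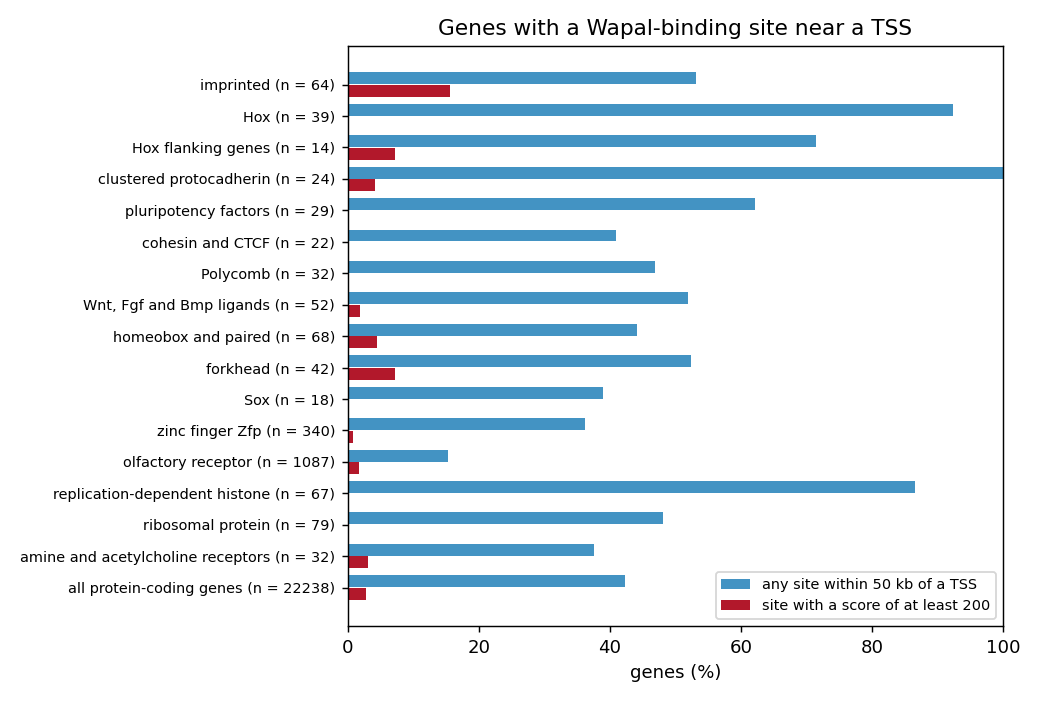
Share of the genes of each list (%) with any Wapal-binding site within 50 kb of a TSS (blue) and with a site scoring at least 200 (red), with the number of genes matched. Imprinted genes have the longest red bar at 15.6%, and Hox and histone genes have blue bars of 92.3% and 86.6% and no red bar.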

How the data were processed

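Per the labels and the study's methods, 4 libraries were sequenced: 2 FB Wapal clones, 1 BirA line and 1 input. Bowtie placed the reads on mm9, only reads with a unique position were kept, and the authors ran MACS 1.4.2 on them with input as the background (default p of 1e-05). They deposited 1 list for both clones, joined by a rule not given in the sources used here, and 1 for BirA. The value in each deposited list is the authors' MACS score. Read counts are not part of the lists, and the depth behind a region is unknown.

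Members and gene lists were chosen with earlier results of these data known. Regions sharing at least 1 bp with a BirA region were removed. Sites were placed by their centre with GENCODE M1 genes on mm9 (NCBIM37 sequence), promoters first (2 kb), then exons, introns and extragenic regions. The CTCF core motif of 12 positions was searched on both strands. The matrix (36 positions, pseudocount 1) was learned from best cores below a score of 200 on odd autosomes, and on even autosomes as an alternative. Each site's best match is its highest matrix fit, which need not be its core of fewest mismatches. Cores counted as separate did not overlap. For gene lists, any annotated TSS of a gene counted. Shares carry 95% Wilson intervals. No test was run, since 1 list holds no replicates. The sites named were the 20 of the highest score, 5 on each side of the threshold, 10 each in promoters and exons, 5 without a core, the 5 closest pairs and the listed genes within 50 kb. Core bases and whole cores, chromosome 8 by parts, sites with 3 cores or with no match, the widest and narrowest sites, Dner and the site near Tox3 were chosen after seeing their values. Functions were tested on simulated sequences and regions. Scripts used Python 3.11.15 with pysam 0.24.0, pandas 2.3.3, numpy 2.4.6, matplotlib 3.10.9 and scipy 1.17.1. Repeat annotation was not used here.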

Additional observations from a re-analysis of the deposited data

How the results depend on the processing

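No paired analysis was possible because the deposited list joins both clones, and for the same reason no replicate could be left out. A planned measure of repeat content was not run, since the genome sequence used marks no repeats. Of 70 alternatives, 53 kept the value within its interval or, for counts, within 1.5 times. Some small differences from the sites below 200 changed direction at scores of at least 300, with overlapping intervals. The promoter share became higher (11.5% against 9.98%) and the exon share lower (2.08% against 2.61%). The nearest other site became farther (81.1 kb against 74.5 kb), as did the motif from the centre (45.5 bp against 43 bp). Leaving out chromosome 8 was added after the data were seen and gave 384 sites, with the width, core, exact core, extragenic share and TSS distance within the intervals of the full set. With scores of at least 150 there were 1060 sites, their median width was 864 bp and 80.1% had a core, and with scores of at least 300 there were 96 sites, 908 bp wide, with 11.5% in promoters and a median of 13.045 kb from a TSS. The core share was 98.2% with 2 mismatches, which regions 5 kb away reached in 53.2%, and 80.2% in the central 500 bp. The promoter share was 4.55% at 1 kb, 17.5% at 5 kb and 5.91% with protein-coding genes alone. Extragenic sites were 54.5% with promoters of 5 kb, and the TSS distance was 21.5 kb for protein-coding genes. GC content over the whole site was 44.3%. Listed genes numbered 12 within 10 kb and 73 within 100 kb, against 42 within 50 kb. These shifts follow from the changed definition or threshold. Without read counts or separate clones, the precision of single scores is unknown.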
